A study of Mus musculus with 8 samples.

Results

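Spliced transcripts marked as intergenic in the authors' annotation, but under 5 kb from an annotated locus, were examined. They were followed in mouse heart tissue after myocardial infarction (MI). A locus was included when all of its assembled transcripts carried the class code u, the mark Cufflinks uses for an intergenic transcript, when at least 1 transcript had 2 or more exons, and when its span lay under 5000 bases from a locus holding an annotated transcript (class code =, j or o). Of 35299 loci, 414 met this rule. They made up 414 of the 1280 spliced intergenic loci, and the other 866 lay 5 kb or more from any annotated locus. The 3 loci just inside the limit lay 4981, 4937 and 4902 bases from their neighbours, and the 3 just outside lay 5057, 5068 and 5087 bases away.

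The study compared 4 hearts labelled Sham with 4 labelled MI, all from C57BL/6J mice 12 weeks old, with tissue from the border zone of the injury taken 2 weeks after the operation. The series describes the 4 samples of a group as biological replicates. The labels conflict in places: the source name of all MI samples reads Sham, the description of Sham 4 names an infarct, and those of MI 1, 2 and 3 name a sham infarct. Titles and treatment labels were followed here. Nppa, the atrial natriuretic peptide gene, had 15578 to 18866 normalised reads in the samples titled Sham, 18029 of them in Sham 4, and 251068 to 418466 in those titled MI. Postn, a fibroblast matrix gene, had 3842 to 7214 and 67234 to 112177. Sham 4 thus lay with the other Sham samples, and MI 1, 2 and 3 with MI 4. Only the Sham titles are marked as a reanalysis, so the origin of the Sham data and the operation cannot be told apart. Poly(A)-selected RNA was sequenced to between 108.3 M and 160.7 M reads in loci for Sham and between 165.5 M and 190.2 M for MI. Values are normalised reads: each sample's counts were divided by a size factor of its own, so that 1 read was worth 0.663 to 1.58 normalised reads. The smallest amount treated as detected, 3 reads, was 1.99 to 4.73 normalised reads, depending on the sample.

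Many mammalian promoters start RNA synthesis in both directions, and the RNA that leaves away from the gene is usually short and quickly degraded. Some of these divergent RNAs are spliced and polyadenylated, and are then assembled as a locus head-to-head with the gene. Loci that end toward each other (tail-to-tail) can run into each other's 3' ends, and a spliced locus on the same strand can be a separate gene or a piece of the gene beside it that the assembly failed to join.

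Of the 414 loci, 161 (38.9%) lay head-to-head with the nearest annotated locus, on the opposite strand with the 5' ends nearest to each other. Another 57 (13.8%) lay tail-to-tail, 56 (13.5%) lay upstream on the same strand, 68 (16.4%) lay downstream on the same strand, and 72 (17.4%) had a span that overlapped the neighbour's. The 391 distinct neighbours included 22 with more than 1 of these loci, so 45 of the loci share a neighbour and are not independent. As a reference, 12228 annotated multi-exon loci had another annotated locus under 5 kb away, and 13.4% of these lay head-to-head, 15.04% tail-to-tail, 10.2% upstream, 9.11% downstream and 52.2% overlapping. The 414 loci were selected by a code for intergenic transcripts, although 72 of them overlapped a neighbour's span. The annotated loci were not selected so, which makes these shares unlike. Of the 342 intergenic loci without overlap, 161 lay head-to-head. The annotated loci without overlap were 1644 head-to-head, 1839 tail-to-tail, 1242 upstream and 1114 downstream.

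The gap was shortest in the head-to-head arrangement. Its median was 232 bases (quartiles 116 and 1552), and 90 of the 161 pairs (55.9%) had under 300 bases between the 5' ends. Among annotated head-to-head pairs the median was 211 bases. Tail-to-tail pairs had a median gap of 2028 bases, and 5 of 57 (8.77%) were under 300. Upstream loci had a median gap of 523 bases and downstream loci of 1024. The plot of gap by orientation shows the band of head-to-head pairs at short gaps.

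**Figure D1:**
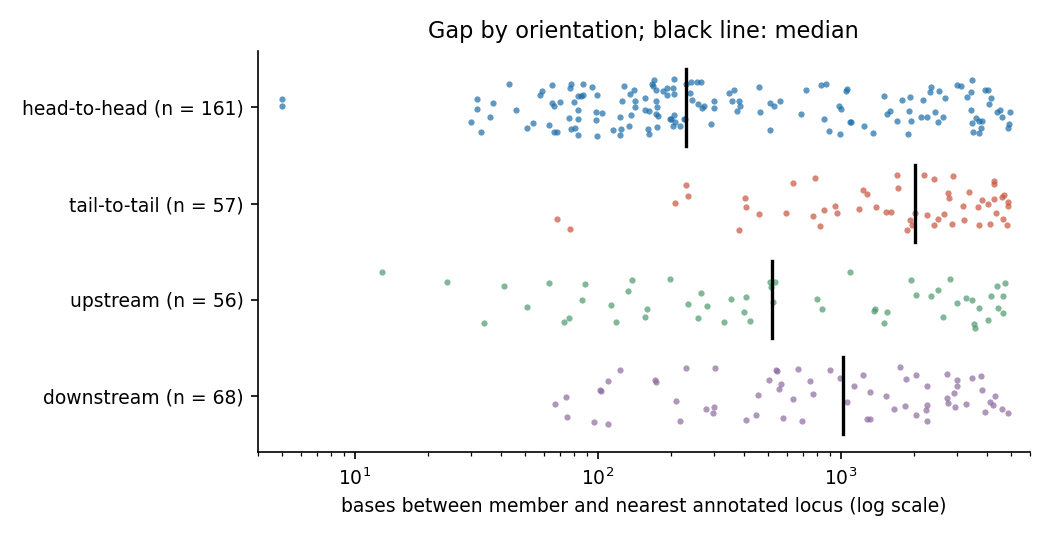
Bases between each spliced intergenic locus and its nearest annotated locus (log scale), by orientation, with 1 point per locus and a black line at the median. Head-to-head loci gather at short gaps (median 232 bases), tail-to-tail loci at long ones (median 2028); points are spread vertically at random, and the 72 overlapping loci have no gap.

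The promoters that the head-to-head loci face are shown by 5 examples, the 250 bases before the outermost RefSeq start of the neighbour, from RefSeq on GRCm38.p6. The intergenic loci themselves have mm9 coordinates, so the window could not be aligned to them, and a gene's outermost RefSeq start need not be the start that the locus faces. Capitals mark each match, on either strand and with overlaps allowed, to TATAAA (the TATA box), CCAAT (bound by NF-Y), GGGCGG (the core of the GC box bound by Sp1) or CCGGAAG (bound by ETS factors). Ankrd11 and Med26 faced abundant head-to-head loci, Creb3l2 moved against its locus, Egr2 faced the locus with the largest rise, and Slc8a1 encodes the cardiac sodium-calcium exchanger and has no match.
Ankrd11, chr8:123042285-123042534, minus strand: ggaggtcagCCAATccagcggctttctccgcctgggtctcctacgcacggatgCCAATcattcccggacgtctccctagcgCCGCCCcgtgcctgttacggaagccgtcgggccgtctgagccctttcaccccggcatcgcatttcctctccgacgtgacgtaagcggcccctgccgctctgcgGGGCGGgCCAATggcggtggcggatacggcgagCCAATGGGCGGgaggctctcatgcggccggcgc
Med26, chr8:72548311-72548560, minus strand: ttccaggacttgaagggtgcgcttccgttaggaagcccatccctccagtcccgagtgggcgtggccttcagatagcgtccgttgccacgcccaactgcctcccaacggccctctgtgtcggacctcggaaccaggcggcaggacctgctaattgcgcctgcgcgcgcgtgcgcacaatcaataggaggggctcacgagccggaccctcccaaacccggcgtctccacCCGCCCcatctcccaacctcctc
Creb3l2, chr6:37442149-37442398, minus strand: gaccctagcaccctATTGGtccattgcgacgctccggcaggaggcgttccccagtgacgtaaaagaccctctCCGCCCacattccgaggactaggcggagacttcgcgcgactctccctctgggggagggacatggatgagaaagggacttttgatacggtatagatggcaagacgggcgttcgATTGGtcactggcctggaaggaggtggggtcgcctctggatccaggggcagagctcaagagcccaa
Egr2, chr10:67535249-67535498, plus strand: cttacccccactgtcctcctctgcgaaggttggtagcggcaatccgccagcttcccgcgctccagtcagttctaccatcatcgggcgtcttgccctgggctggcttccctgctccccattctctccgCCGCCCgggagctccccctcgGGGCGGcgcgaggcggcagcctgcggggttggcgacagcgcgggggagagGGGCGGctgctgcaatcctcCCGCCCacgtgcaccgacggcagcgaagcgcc
Slc8a1, chr17:81738388-81738637, minus strand: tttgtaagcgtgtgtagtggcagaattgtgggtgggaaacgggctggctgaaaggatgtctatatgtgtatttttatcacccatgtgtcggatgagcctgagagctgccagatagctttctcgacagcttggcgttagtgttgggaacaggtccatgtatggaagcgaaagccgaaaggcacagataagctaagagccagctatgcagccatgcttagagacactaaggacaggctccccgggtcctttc

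These windows differ in base composition. Ankrd11 has 30 CpG dinucleotides and a GC content of 68.8%, Egr2 26 and 71.2%, Med26 22 and 65.6%, Creb3l2 16 and 60.0%, and Slc8a1 8 and 50.4%. RefSeq held a promoter for 104 of the 146 distinct head-to-head neighbours that had a single name, with a median of 18 CpG and 63.2% GC. For the 53 of 81 neighbours under 300 bases away, the medians were 21 CpG and 64.8% GC. The median over 10671 named annotated loci with a mean of at least 10 normalised reads was 15 CpG and 59.6% GC, and over all 27025 RefSeq promoters 6 CpG and 52.0% GC. Tail-to-tail neighbours (28 of 51 matched) had a median of 9.5 CpG.

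GGGCGG was found in 61.5% of the head-to-head promoters and in 69.8% of those under 300 bases away, against 56.6% of the promoters of expressed named loci and 33.0% of all promoters. TATAAA was found in 10.6% and 7.55% of the same head-to-head sets, against 6.89% and 12.98%. CCAAT was found in 36.5% and 39.6%, against 35.7% and 34.5%, and CCGGAAG in 16.3% and 16.98%, against 12.7% and 7.07%. These shares describe letters in a window and were not tested.

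The loci were short and weakly expressed. No transcript had more than 2 exons in 259 of them (62.6%), 30 had a transcript of 5 or more exons, and the longest had 18. The median locus had 2308 exon bases over a span of 5045.5 bases. The median level, over all 8 samples and per kb of exon, was 12.4 normalised reads (quartiles 7.02 and 25.7), against 382 for their neighbours. In the 296 pairs where both loci could be tested, the intergenic locus stood at a median of 3.90% of its neighbour's level per kb, and 26 loci stood above their neighbour. Together the 414 loci took 0.0324% to 0.0394% of a Sham library and 0.0346% to 0.0435% of an MI library. Between 332 and 361 of them had more than 3 reads in a Sham library, and between 375 and 385 in the more deeply sequenced MI libraries. No read was found in any sample for 14 of the 414.

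Exon and intron lengths matched a gene of the later GENCODE M21 annotation for 54 loci. Of these, 23 matched a protein-coding gene, 17 a lincRNA, 4 an antisense RNA and 4 a bidirectional promoter lncRNA. Of the 54, 7 matched the same later gene as their neighbour, all on the same strand: Slc26a8, 2310014F06Rik and Hephl1 downstream, and Dnah12, Pabpc1l, Exoc3l2 and Muc16 upstream. For these the locus and the neighbour are, by that annotation, pieces of a single gene.

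The first comparison asked which loci differed between MI and Sham. Of the 414 loci, 310 had a mean of at least 10 normalised reads and were tested, and 104 were not. Using limma, a linear model fitted across all 19186 loci that passed this filter, 41 loci (13.2%) were higher in MI and 64 (20.6%) were lower at an adjusted p under 0.05. Over all 19186 tested loci the shares were 20.8% higher and 20.1% lower, 40.9% called in all. The median log2 difference was -0.19 among the 310 loci and -0.02 among all loci. The values of Sham and MI did not overlap in 100 of the 310 (32.3%), against 39.6% of all loci. A difference of at least 2-fold was called in 26 higher and 32 lower loci. Over all loci, 9.04% were called at least 2-fold higher and 3.77% at least 2-fold lower.

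The split depended on the scaling. With scaling to library totals, 63 of the loci were higher and 35 lower, against a background of 44.4% and 7.81%, and the median of all loci moved up by 0.305. Relative to all loci the intergenic loci still sat lower, at a median of 0.11 against 0.29. The count tests gave similar splits, with 42 higher and 57 lower by edgeR (background 22.3% and 19%) and 41 and 64 by DESeq2 (background 22.6% and 21.5%). The 866 more distant spliced intergenic loci gave 13.03% higher and 35.5% lower among 660 tested, and annotated loci 23.7% and 21.0% among 15278.

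Head-to-head loci had 11 rises (8.53%) and 30 falls (23.3%) among 129 tested, against 20.8% and 20.1% of all tested loci. Tail-to-tail loci had 8 and 11 among 43, upstream loci 8 and 8 among 42, downstream loci 7 and 8 among 55, and overlapping loci 7 and 7 among 41. Whether these splits differ between orientations was not tested. Under total scaling the head-to-head loci had 25 rises and 14 falls, against a background of 44.4% higher and 7.81% lower. Whether falls outnumbered rises thus depended on the scaling, which moved the background as well. The median log2 difference of head-to-head loci lay under that of all loci with both scalings. It was -0.14 against -0.02 with the deposited scaling, and 0.16 against 0.29 with total scaling. Within the head-to-head loci, 5 rose and 20 fell among 75 with a gap under 300 bases, and 6 rose and 10 fell among 54 with a longer gap.

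**Figure D2:**
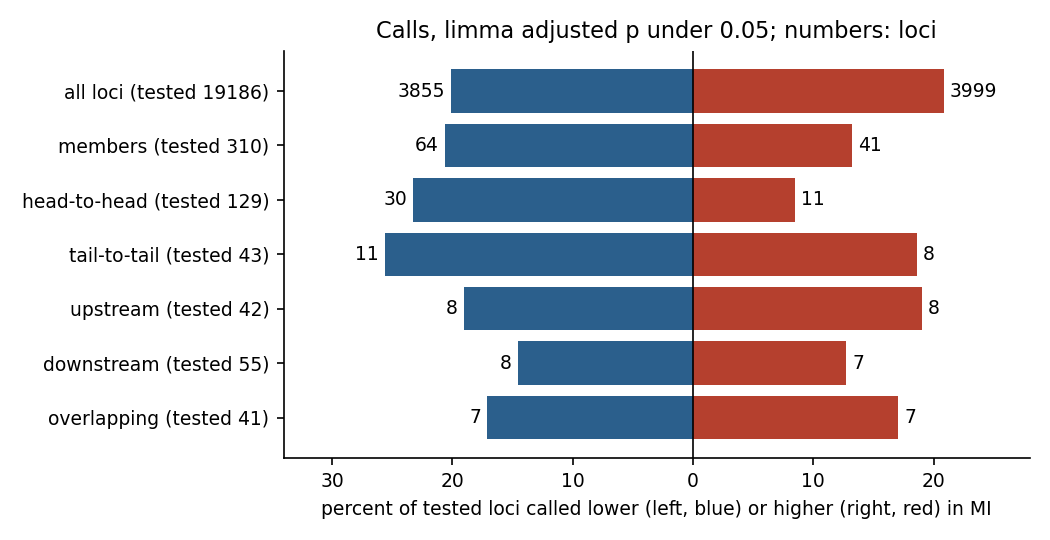
Percent of tested loci called higher (red, right) or lower (blue, left) in MI at a limma adjusted p under 0.05, for all loci, all spliced intergenic loci near annotated loci (members) and each orientation, with the number of loci beside each bar. Head-to-head loci show 30 falls and 11 rises, and the upstream and overlapping loci equal numbers of both.

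1 library stood apart within its group: on the first principal component of all tested loci MI 2 lay at 34.8, the other MI samples at 62.4 to 63.2 and the Sham samples at -65.2 to -42.6. Without MI 2, 41 of the loci were higher and 64 lower, the same numbers as with it. They were not all the same loci, as 38 of the 41 rises and 60 of the 64 falls were kept. Cell markers moved between the groups as well. All 8 tested fibroblast markers were higher in MI (summed level 108376 to 163383 normalised reads in Sham, 594290 to 921242 in MI), as were all 7 macrophage markers (56852 to 75366 in Sham, 89609 to 104328 in MI), all 6 T and B cell markers (132 to 282 in Sham, 224 to 627 in MI) and 4 of 7 smooth muscle and pericyte markers (130923 to 150610 in Sham, 135585 to 167080 in MI). Of 9 cardiomyocyte markers, 6 were lower and 1 was higher, and their summed level, 1.03e+07 to 1.15e+07 in Sham and 7.16e+06 to 8.66e+06 in MI, was the highest of these lists. No endothelial marker (0 of 7) passed the test. The 3 tested adipocyte markers were higher, with a summed level of 79.4 to 4344 in MI against 12.5 to 22.7 in Sham, while Lep was not tested. Of 4 lung epithelium markers (summed level 12.6 to 20.5 in Sham, 30.5 to 45.3 in MI), Sftpb was higher and Sftpc, Sftpa1 and Scgb1a1 were under 3 reads. Of 5 skeletal muscle markers (148452 to 185629 in Sham, 82592 to 126933 in MI), 1 was higher and 1 lower. In these bulk samples fewer cells of a type and less RNA per cell cannot be told apart, and the part of cell makeup in the differences below was not tested.

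Differences below are on the log2(normalised reads + 1) scale, ± the standard error, with n = 4 in each group and p-values adjusted by Benjamini-Hochberg over all tested loci. This scale understates the change of weakly expressed loci. The 3 largest rises and falls in each orientation are described first, and they were drawn from called loci whose groups did not overlap. The filter on the mean covered both groups together, so a locus weak in either could pass through the other. Besides those at Egr2 and Hephl1, the loci at Cyp27b1 with Mettl1, Adamts2, Sgpp1, Upf1 and E2f6 passed only through MI samples. The loci at Sipa1l2, Yipf5, Ppp1r1b, Gm19299, Dsg2 and Wdr75 passed only through Sham samples. The calls and ratios of all these loci are conditional on that filter.

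Among head-to-head loci, the largest rise was that of XLOC_002924 (chr10:66959158-66998675, mm9, minus strand, up to 4 exons), 1941 bases from Egr2, a zinc-finger transcription factor of the immediate-early class. It had 0, 0, 0 and 1.58 normalised reads in Sham 1 to 4 and 35.8, 17.3, 58.5 and 34.9 in MI 1 to 4. The Sham libraries held a single read in all, the MI libraries 186, and the ratio of normalised rates was 118 (exact 95% interval 21.0 to 4693, counting error only). The fitted difference was 4.77 ± 0.48 (adjusted p = 4.86e-05), a value that depends on the pseudocount where Sham is near 0. The locus passed the filter on the mean only through its MI samples. Egr2 itself rose by 2.96 ± 0.31 (adjusted p = 6.09e-05), and the ratio of locus to gene did not pass its own test (adjusted p = 0.12).

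The locus XLOC_003246 (chr10:126475564-126478810, minus strand) started 177 bases from an annotated locus that holds both Cyp27b1, which makes active vitamin D, and Mettl1, a methyltransferase of tRNA. It had 4.77, 3.42, 2.27 and 6.31 normalised reads in Sham and 27.2, 19.8, 17.3 and 27.9 in MI. Every MI sample lay above every Sham sample, and the locus rose by 2.25 ± 0.35 (adjusted p = 0.000638) while its neighbour differed by 0.01 ± 0.09 and was not called. XLOC_004864, 532 bases from Adamts2, which trims procollagen, had 5.97, 6.83, 7.96 and 7.88 in Sham and 23.9, 26.4, 21.4 and 20.9 in MI. It rose by 1.57 ± 0.27 without overlap, beside a rise of 2.09 ± 0.13 in Adamts2.

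The largest head-to-head fall was in XLOC_030914 (chr8:128096415-128101681, plus strand), 2689 bases from Sipa1l2, of the family of Rap GTPase-activating proteins. The locus had 63.3, 81.99, 78.4 and 47.3 normalised reads in Sham and 7.95, 10.7, 12.4 and 2.62 in MI. All MI samples lay far below the lowest Sham sample, and the locus fell by 3.00 ± 0.41 (adjusted p = 0.000282). Sipa1l2 differed by -0.22 ± 0.09 and was not called (adjusted p = 0.0677).

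Head-to-head falls beside metabolic genes were seen at Got1, the cytosolic aspartate aminotransferase, and Acaa2, a thiolase of mitochondrial fatty acid oxidation. XLOC_015908, 3789 bases from Got1, had 291, 327, 434 and 243 normalised reads in Sham and 103, 152, 88.1 and 103 in MI. XLOC_015274, 81 bases from Acaa2, had 174, 208, 304 and 224 in Sham and 70.9, 118, 71.6 and 71.6 in MI. In both, every MI sample lay below every Sham sample. The falls were 1.53 ± 0.22 and 1.45 ± 0.22 (adjusted p = 0.000348 and 0.000565), and the genes themselves fell by 0.67 ± 0.11 and 1.11 ± 0.12.

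Among tail-to-tail loci, XLOC_023639 (chr5:64967303-64981884, plus strand), 3217 bases from Gm3716, rose most. It had 9.55, 13.7, 7.96 and 11.04 normalised reads in Sham and 81.5, 38.7, 96.4 and 85.5 in MI, with MI 2 the lowest of the MI samples and still above all Sham samples. The rise was 2.67 ± 0.32 (adjusted p = 0.000131). XLOC_026589 (chr6:58647549-58730510, minus strand, 4 exons) ended 1535 bases from Abcg2, an efflux transporter of the plasma membrane. It had 13.1, 20.5, 25.01 and 17.3 in Sham and 90.8, 62.6, 93.1 and 83.8 in MI, without overlap, and rose by 2.08 ± 0.25 (adjusted p = 0.000133) while Abcg2 differed by -0.01 ± 0.10. XLOC_006263, beside Sgpp1, a phosphatase of sphingosine 1-phosphate, had 8.36, 2.28, 7.96 and 3.15 in Sham and 22.5, 15.6, 17.3 and 16.6 in MI and rose by 1.70 ± 0.41.

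The largest tail-to-tail fall was at Yipf5, a membrane protein of the Golgi. The locus XLOC_014720, which matches a later lincRNA, had 10.7, 14.8, 21.6 and 22.1 normalised reads in Sham and 3.31, 8.24, 5.76 and 1.75 in MI, all MI samples below all Sham samples. It fell by 1.76 ± 0.44 (adjusted p = 0.00882). XLOC_025643, 4123 bases from Akr1b3 (aldose reductase), had 72.8, 96.8, 107 and 50.5 in Sham and 19.2, 32.9, 35.4 and 12.2 in MI and fell by 1.73 ± 0.36. XLOC_001405, which matches the later gene Kif28, a kinesin, had 289, 322, 282 and 289 in Sham and 137, 154, 122 and 88.1 in MI and fell by 1.26 ± 0.18 (adjusted p = 0.000316), while Sccpdh 3194 bases away differed by -0.11 ± 0.06 and was not called. In both loci the groups were apart.

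Upstream on the same strand, the largest rise was in XLOC_004951 (chr11:59408260-59412853, minus strand), whose nearest annotated locus has 1 exon, carries no name here and was too weakly expressed to test. The locus had 21.5, 12.5, 23.9 and 7.88 normalised reads in Sham and 103, 79.9, 104 and 157 in MI, without overlap, and rose by 2.75 ± 0.35 (adjusted p = 0.000186). XLOC_031179, 424 bases upstream of Upf1, a helicase of nonsense-mediated decay, had 0, 2.28, 4.55 and 3.15 in Sham and 36.5, 6.59, 21.4 and 21.8 in MI. Its rise of 2.73 ± 0.63 rested on groups that came close, with MI 2 just above the highest Sham sample.

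XLOC_034818 (chrX:93155768-93163357, minus strand, 5 exons), 3469 bases upstream of Las1l, which acts in ribosome production, had 34.6, 29.6, 25.01 and 31.5 normalised reads in Sham and 117, 105, 99.6 and 102 in MI. Both groups were tight and far apart, and the rise was 1.79 ± 0.18 (adjusted p = 5.13e-05).

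The upstream falls were at Ppp1r1b, an inhibitor of protein phosphatase 1, Eef2k, the kinase of elongation factor 2, and Ptgds, a prostaglandin D synthase. XLOC_004402 had 23.9, 22.8, 37.5 and 17.3 normalised reads in Sham and 7.95, 8.24, 11.5 and 6.98 in MI, and fell by 1.41 ± 0.31. XLOC_028499, a 10-exon locus that matches the later gene Gm5737, had 97.9, 78.6, 95.5 and 88.3 in Sham and 29.8, 55.2, 25.5 and 40.1 in MI, and fell by 1.29 ± 0.25. XLOC_018093 had 85.9, 114, 149 and 126 in Sham and 33.1, 72.5, 53.5 and 50.6 in MI, and fell by 1.19 ± 0.26. The groups did not overlap at any of the 3 loci (adjusted p between 0.00215 and 0.00465), and none of the 3 neighbours was called.

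Downstream on the same strand, XLOC_032707, which matches Hephl1 like its neighbour, had 1.19, 0, 2.27 and 0 normalised reads in Sham and 29.8, 15.6, 42.8 and 39.3 in MI. Hephl1 encodes a ferroxidase related to ceruloplasmin. The Sham libraries held 3 reads and the MI libraries 161, a ratio of 34.1 (exact 95% interval 11.5 to 167, counting error only). The locus, which passed the filter on the mean only through its MI samples, was called at 4.24 ± 0.51 (adjusted p = 0.000127) and its neighbour at 3.47 ± 0.58. XLOC_000761 lay 991 bases downstream of Ppp1r42, a protein linked to protein phosphatase 1, and had 42.97, 60.4, 50.02 and 64.6 in Sham and 152, 95.5, 109 and 164 in MI, without overlap. XLOC_000623, 635 bases downstream of Cd84, a receptor of leukocytes, had 32.2, 46.7, 44.3 and 26.8 in Sham and 104, 84.8, 65.9 and 87.3 in MI. It rose by 1.18 ± 0.24 without overlap, beside a rise of 1.49 ± 0.18 in Cd84.

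The downstream falls included the abundant locus XLOC_028733 (chr7:4907599-4916193, minus strand), which matches the later gene Sbk2, 668 bases from Sbk3, both of a small family of SH3-binding kinases. It had 1025, 996, 952 and 1160.4 normalised reads in Sham and 292, 568, 301 and 309 in MI. MI 2 was the highest MI sample, and all MI samples lay below all Sham samples. The fall was 1.55 ± 0.20 (adjusted p = 0.000188), and Sbk3 fell by 1.32 ± 0.35 with overlapping groups. XLOC_021633, downstream of Coa7, an assembly factor of cytochrome oxidase, had 41.8, 29.6, 39.8 and 40.99 in Sham and 13.9, 21.4, 11.5 and 6.11 in MI and fell by 1.56 ± 0.35. XLOC_032324, near Gm19299, had 20.3, 20.5, 22.7 and 25.2 in Sham and 5.97, 7.41, 8.24 and 6.11 in MI and fell by 1.55 ± 0.27. Neither locus had overlapping groups.

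Where spans overlap, reads of the locus and of its neighbour may not be separable, because the strandedness of the libraries and of the counting is not given in the sources used here. Of the 72 overlapping loci, 43 lay inside the neighbour's span, and 42 of the 414 shared exon bases with it. Only 17 of those 42 were tested, and leaving all 42 out gave 38 higher and 61 lower among 293. XLOC_006567, whose 3' end crosses that of E2f6, a repressor of the E2F family, had 3.58, 2.28, 3.41 and 3.15 normalised reads in Sham and 17.2, 15.6, 23.9 and 26.2 in MI, and rose by 2.39 ± 0.32 (adjusted p = 0.000271). Inside Fam220a, XLOC_024984 had 16.7, 14.8, 23.9 and 15.8 in Sham and 46.4, 41.2, 42.8 and 49.7 in MI and rose by 1.31 ± 0.23. Inside Rbpms, which encodes an RNA-binding protein, XLOC_030392 had 28.6, 62.6, 36.4 and 74.1 in Sham and 94.8, 89.8, 101 and 114 in MI and rose by 1.07 ± 0.29. These 3 loci share no exon base with the neighbour, and their groups did not overlap.

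The overlapping falls were at Dsg2, a desmosomal cadherin that joins cardiomyocytes, at Wdr75, a factor of ribosome production, and at an annotated locus with no name here. The locus XLOC_014935 at the 5' end of Dsg2 had 25.1, 27.3, 25.01 and 42.6 normalised reads in Sham and 6.63, 6.59, 4.94 and 6.98 in MI and fell by 2.06 ± 0.29 (adjusted p = 0.000341). XLOC_000872 at the 3' end of Wdr75, with 2413 shared exon bases, had 21.5, 29.6, 30.7 and 45.7 in Sham and 1.99, 10.7, 7.41 and 10.5 in MI and fell by 2.06 ± 0.46. XLOC_016393, with 22350 shared exon bases, had 316, 446, 322 and 454 in Sham and 299.6, 223, 205 and 248 in MI and fell by 0.65 ± 0.17, a call lost with scaling to library totals (-0.34, adjusted p = 0.18). All 3 had groups apart.

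**Figure D3:**
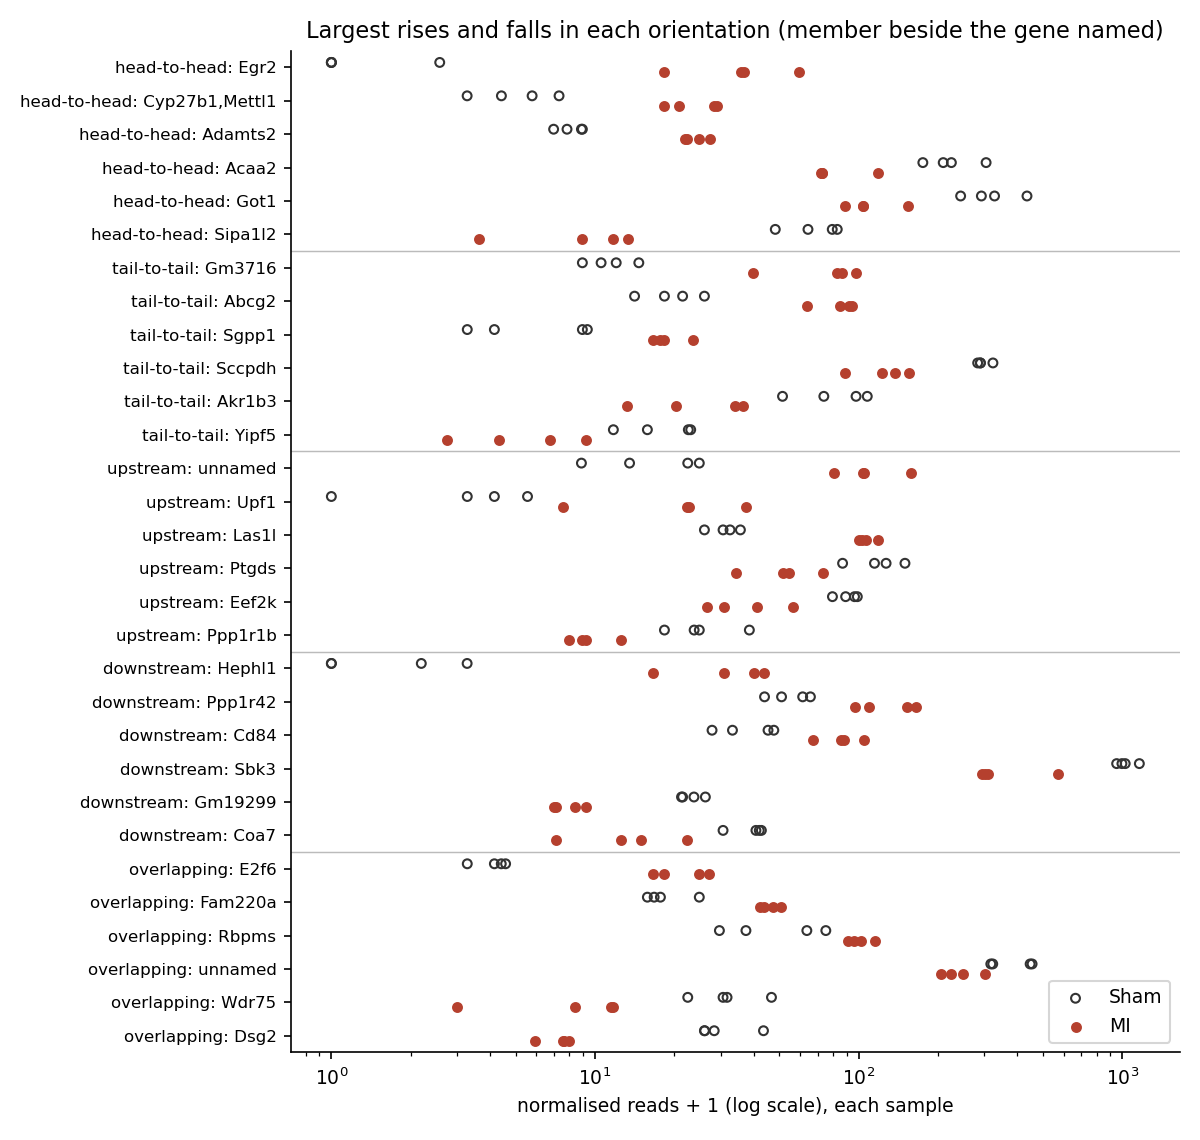
Normalised reads + 1 (log scale) in each sample, for the 3 largest rises and 3 largest falls in each orientation, labelled by the nearest annotated gene; open circles are the 4 Sham samples, red points the 4 MI samples. No locus shown has overlapping groups, and the head-to-head locus at Egr2 and the downstream locus at Hephl1 sit near 1 in Sham.

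Per kb of exon, the highest level was that of XLOC_006957 (chr12:109441803-109513640, minus strand), which matches the later gene Ccdc85c and ends 235 bases from Ccnk, the cyclin partner of CDK12 and CDK13. Its level was 1392 normalised reads per kb, against 1682 for Ccnk. It had 7449.8, 6601, 7891 and 7538 normalised reads in Sham and 4302, 5344, 4400.2 and 4919.8 in MI, every MI sample lower, and fell by 0.64 ± 0.09 (adjusted p = 0.000298). The tail-to-tail locus at Pitpnc1, a phosphatidylinositol transfer protein, stood at 955.7 per kb, with 1283, 1169.6, 1639 and 1389 in Sham and 542, 702, 654 and 640.5 in MI. It fell by 1.10 ± 0.12 (adjusted p = 8.08e-05) with groups far apart, and Pitpnc1 fell by 0.52 ± 0.10.

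Head-to-head, the highest level was 637 per kb at Smad7, the inhibitory Smad of TGF-beta signalling. The locus XLOC_015277, with up to 7 exons, had 2883, 3017, 2894 and 2983 normalised reads in Sham and 2021, 2261, 2087 and 2033 in MI, every MI sample lower. It fell by 0.49 ± 0.07 (adjusted p = 0.000305), while Smad7 differed by 0.37 ± 0.17 and was not called. XLOC_030879 (chr8:125566282-125570569, plus strand) started 99 bases from Ankrd11, a chromatin regulator, at 312 per kb. It had 1462, 1331, 1681 and 1421 in Sham and 1161, 1156, 1113 and 1109 in MI, without overlap, and fell by 0.37 ± 0.09 (adjusted p = 0.00647). Both calls were lost with scaling to library totals (-0.18, adjusted p = 0.0654, at Smad7, and -0.06, adjusted p = 0.548, at Ankrd11).

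On the same strand, XLOC_031470 (chr8:124356747-124367439, minus strand), 3277 bases upstream of Klhdc4, stood at 154 per kb and had 1182, 1381, 1097 and 487 normalised reads in Sham and 1928, 1625, 3179 and 2266 in MI. Sham 4 was the lowest sample and MI 3 the highest, and all MI samples lay above all Sham samples. The locus rose by 1.17 ± 0.30 (adjusted p = 0.0107), and Klhdc4 differed by -0.09 ± 0.09. XLOC_021898, upstream of Rsg1, a small GTPase of cilia, had 156, 189, 131 and 112 in Sham and 77.5, 78.2, 149.9 and 68.9 in MI, with overlapping groups, and was not called, though it was without Sham 4 (adjusted p = 0.0451) or without MI 3 (0.00745). XLOC_021944, downstream of an unnamed locus, stood at 511 per kb with 559.8, 656, 689 and 589.7 in Sham and 639, 546, 648 and 591 in MI, also overlapping and not called.

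A 15-exon locus, XLOC_008232, matches the later gene Klhl3, an adaptor of a ubiquitin ligase. It had 1386, 1424, 1305 and 1247 normalised reads in Sham and 856, 1136, 840.0 and 599 in MI. All MI samples lay below Sham, and the fall was 0.68 ± 0.16 (adjusted p = 0.00705). With scaling to library totals this call was lost (-0.37, adjusted p = 0.103).

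The loci of highest mean that were not called in each orientation included XLOC_027818, which matches the lincRNA Gm37494 and lies 3791 bases from Zfp619. It had 2749, 3210.3, 2573 and 3470.3 normalised reads in Sham and 2818, 2793, 2854 and 2786 in MI, and its difference of -0.08 ± 0.10 had an interval of ±2 standard errors from -0.27 to 0.11. XLOC_030546 (chr8:75072311-75085924, plus strand), 141 bases from Med26, a Mediator subunit, had 2691, 3009, 1859 and 3593 in Sham and 2551, 1962, 1985 and 2092 in MI. Its interval ran from -0.70 to 0.01, and its groups overlapped; without Sham 3 it was called (adjusted p = 0.00925). Intervals were -1.23 to -0.12 for the tail-to-tail locus at Tln2 (talin 2, called without Sham 3 or without MI 2, adjusted p = 0.0263 and 0.0252), -0.59 to -0.08 for the upstream locus at Usp24, a deubiquitinase, and -0.43 to 0.23 for the locus inside Zfp97. The locus XLOC_030996, inside an unnamed neighbour, was not called either (-0.61 ± 0.24, adjusted p = 0.0614), though it was without Sham 4 (0.0444) or without MI 1 (0.0301).

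The nearest neighbours of the 414 loci were 391 of the 26099 annotated loci, and some were listed genes of heart function. Among 50 cardiac transcription factors, 46 of them found among the named loci, 2 had such a locus, Meox2 and Tbx20, both head-to-head. XLOC_006623 (chr12:37810896-37833350, minus strand, 4 exons) at Meox2, a homeobox gene, had 923, 616, 535 and 724 normalised reads in Sham and 809, 422, 564 and 884 in MI. XLOC_032014 at Tbx20, a T-box factor of heart development, had 21.5, 34.2, 26.1 and 29.96 in Sham and 41.1, 24.7, 28.8 and 20.9 in MI. In both the groups overlapped and the locus was not called (differences of -0.09 ± 0.24 and 0.02 ± 0.27), while Tbx20 itself rose by 0.68 ± 0.08 (adjusted p = 8.08e-05).

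Among 50 genes of contraction, calcium handling and conduction, 5 had such a locus and 4 of the 5 loci were tested, with none called. The locus at Slc8a1, 364 bases away head-to-head, had 211, 266, 254 and 227 normalised reads in Sham and 242, 144, 273 and 258 in MI, with MI 2 the lowest. The locus at Dsp, desmoplakin of the desmosome, had 11.9, 4.56, 21.6 and 4.73 in Sham and 9.28, 12.4, 9.06 and 9.60 in MI. XLOC_032591, 173 bases downstream of Myl3, an essential myosin light chain, had 16.7, 30.7, 34.1 and 14.2 in Sham and 24.5, 18.9, 4.94 and 9.60 in MI. All 3 had overlapping groups, and Myl3 itself fell by 0.53 ± 0.11 (adjusted p = 0.00422). The locus at Pdlim5 was too weak to test.

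The fourth of these loci, XLOC_016277 (chr19:36197061-36201051, minus strand), lay 2047 bases upstream of Ankrd1, an ankyrin repeat protein of the sarcomere that is induced by cardiac stress. It had 33.4, 26.2, 22.7 and 28.4 normalised reads in Sham and 45.7, 10.7, 26.4 and 13.96 in MI, with overlapping groups, and its difference of -0.39 ± 0.41 was not called. Ankrd1 had 152877 ± 38757 normalised reads in Sham (SD, n = 4) and 564443 ± 98532 in MI, a rise of 1.90 ± 0.18 (adjusted p = 3.44e-05). The ratio of locus to gene fell by 2.29 ± 0.41 (adjusted p = 0.00398).

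All 3 loci beside energy metabolism genes fell, and so did all 3 genes. Besides Acaa2 these were Ldhb, the heart subunit of lactate dehydrogenase, and Idh2, the mitochondrial isocitrate dehydrogenase. XLOC_027084, 4057 bases upstream of Ldhb, had 37.004, 50.1, 40.9 and 44.1 normalised reads in Sham and 15.9, 27.999, 22.2 and 20.1 in MI, and fell by 0.98 ± 0.24 (Ldhb by 0.91 ± 0.10). XLOC_029341, 355 bases upstream of Idh2, had 75.2, 72.9, 77.3 and 64.6 in Sham and 53.03, 45.3, 33.8 and 34.9 in MI, and fell by 0.80 ± 0.21 (Idh2 by 0.74 ± 0.09). Neither locus had overlapping groups, and the ratio to the gene was not called at any of the 3. The Idh2 locus lost its call with scaling to library totals (-0.50, adjusted p = 0.0854). Of all tested loci 20.1% were lower in MI, and of the 310 tested intergenic loci 20.6%. The gene list was chosen with earlier results of these data known, so the 3 falls are no test of metabolic genes as a set.

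Beside matrix and fibrosis genes there were 2 loci, at Ccn1 and at Sfrp1, and the one at Sfrp1 was too weak to test. XLOC_020213, tail-to-tail with Ccn1, a matricellular protein, had 56.1, 55.8, 61.4 and 45.7 normalised reads in Sham and 44.4, 85.6, 88.1 and 49.7 in MI. The groups overlapped and the locus was not called, while Ccn1 rose by 1.08 ± 0.16 (adjusted p = 0.0004). None of the 35 immune genes listed (0 of 35) had such a locus.

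The second comparison asked whether a locus and its nearest annotated locus moved by the same amount. Across pairs, which are not independent replicates and share the same 8 libraries, the Spearman correlation of the log2 differences was 0.37 over 296 pairs. It was 0.49 over 124 head-to-head pairs, 0.39 over 39 upstream, 0.34 over 52 downstream, 0.22 over 40 tail-to-tail and 0.18 over 41 overlapping pairs. Pearson correlations were 0.62 head-to-head, 0.28 upstream, 0.66 downstream, 0.14 tail-to-tail and 0.05 overlapping. The order of the arrangements thus depended on the measure. Both loci were called in 44 pairs, in the same direction in 33. By orientation this was 15 of 17 head-to-head, 3 of 7 tail-to-tail, 5 of 7 upstream, 6 of 7 downstream and 4 of 6 overlapping pairs. Same-strand pairs in which both loci match the same later gene were not left out of the counts and correlations. The downstream pair at Hephl1, called higher in both loci, is 1 of them. With scaling to library totals, which moved the median of all loci up by 0.305, the counts were 47 of 56 in all. They were 22 of 25 head-to-head and 10 of 13 tail-to-tail. The low tail-to-tail share was thus lost with total scaling, but it was kept with TMM (2 of 6), edgeR (2 of 5) and DESeq2 (3 of 8). The share of agreement due to chance was not estimated.

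Head-to-head pairs that moved together, all named here after their values were seen, included several with gaps under 300 bases. The locus at Slc40a1, the iron exporter ferroportin, fell by 1.37 ± 0.42 and the gene by 0.84 ± 0.11. At Cth, an enzyme that makes cysteine, the values were 1.42 ± 0.33 lower and 1.84 ± 0.23 lower. At Mcam, a cell adhesion molecule, the locus rose by 0.72 ± 0.19 and the gene by 0.77 ± 0.11. At Tgif2, a homeobox repressor, they rose by 1.15 ± 0.27 and 0.53 ± 0.17, and at Clcf1, a cytokine of the interleukin 6 family, by 0.96 ± 0.35 and 0.83 ± 0.19. Whether each of these pairs kept its calls under the alternatives was not examined singly.

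The ratio of locus to neighbour was tested in the same samples, where the size factor cancels but for the pseudocount. It was higher in MI for 18 of the 296 pairs and lower for 27. Over all 1655 tested intergenic loci under 5 kb from an annotated locus, single-exon loci included, 5.38% were called (2.36% higher and 3.02% lower). These 1655 include the 296 pairs, which hold 45 of the 89 calls. The others are single-exon loci, whose median level, tested or not, was 7.85 normalised reads against 25.8 for the 414. The shares are thus not like for like. Head-to-head pairs had 3 higher and 10 lower of 124, tail-to-tail pairs 6 and 7 of 40, upstream 4 and 3 of 39, downstream 1 and 2 of 52, and overlapping 4 and 5 of 41. Of the 45 called ratios, 20 stayed called under every alternative in which they could be fitted and none reversed. The ratio was not run with edgeR, DESeq2, other scalings or thinned reads. The count of higher ratios dropped to 10 without MI 1, 9 without MI 3 and 9 without MI 4, and the count of lower ratios to 15 without Sham 4, 17 without MI 3 and 13 without MI 4.

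**Figure D4:**
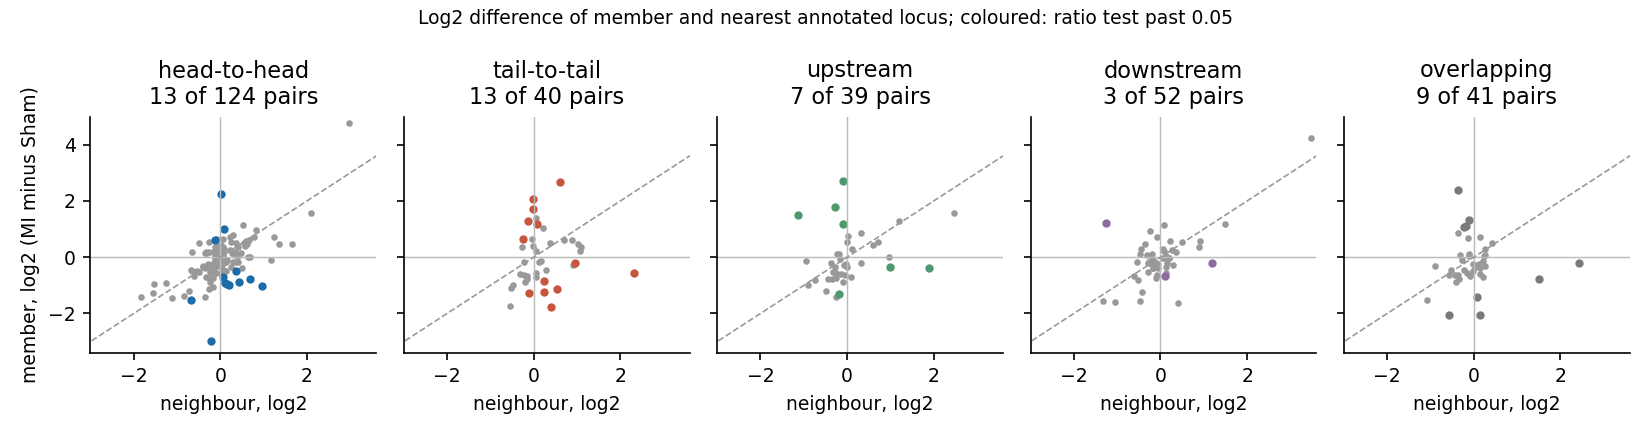
Log2 difference (MI minus Sham) of each intergenic locus against that of its nearest annotated locus, by orientation, for the pairs in which both were tested; coloured points passed the ratio test and the dashed line marks equal change. Head-to-head pairs spread along the line (13 of 124 called), while 13 of 40 tail-to-tail pairs were called.

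In 11 pairs both loci were called in opposite directions, with the intergenic locus lower in 6 and higher in 5. The ratio passed its test in all 11, which opposite calls make likely, so this adds no separate evidence. Several of the pairs lie outside the naming rule and were singled out after their values were seen. With scaling to library totals 6 of the 11 stayed opposite, those at Creb3l2, Lima1, Socs2, Yipf5, Ano10 and Ppp1r42, and both calls of these 6 pairs also held under every other alternative in which they could be fitted.

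The clearest head-to-head case was XLOC_025658 (chr6:37392381-37398563, plus strand), 241 bases from Creb3l2, a transcription factor held in the endoplasmic reticulum membrane until it is cut. The locus had 93.1, 83.1, 115 and 58.3 normalised reads in Sham and 52.4, 49.4, 35.4 and 30.5 in MI. Creb3l2 had 6888 ± 431 in Sham (SD, n = 4) and 13477 ± 893 in MI. All MI samples were below Sham for the locus and above Sham for the gene. The locus fell by 1.03 ± 0.26 (adjusted p = 0.00932), the gene rose by 0.97 ± 0.07 (adjusted p = 1.00e-05), and the ratio fell by 2.00 ± 0.30 (adjusted p = 0.000903).

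XLOC_010683 (chr15:99705929-99715195, plus strand) started 87 bases from Lima1, which binds and bundles actin filaments. It had 301, 369, 329.7 and 378 normalised reads in Sham and 209, 212, 148 and 184 in MI, with no overlap. Lima1 had 5061 ± 202 in Sham (SD, n = 4) and 6809.8 ± 720.3 in MI. The locus fell by 0.88 ± 0.15 and Lima1 rose by 0.42 ± 0.08, so that the ratio fell by 1.30 ± 0.21 (adjusted p = 0.00177).

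Tail-to-tail with Socs2, a suppressor of cytokine signalling, XLOC_002503 (chr10:94798830-94837386, plus strand) matches the later lincRNA 2310039L15Rik. It had 586, 787, 624 and 971 normalised reads in Sham and 349, 516, 279 and 236 in MI, all lower. Socs2 had 5382 ± 657 in Sham (SD, n = 4) and 7842 ± 764 in MI. The locus fell by 1.14 ± 0.24, Socs2 rose by 0.55 ± 0.10, and the ratio fell by 1.68 ± 0.24 (adjusted p = 0.000648). At Yipf5 the gene rose by 0.39 ± 0.08 against the fall of the locus described above, and the ratio (adjusted p = 0.0171) was not called without Sham 3, without Sham 4 or without MI 4 (at most 0.069).

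XLOC_033547 (chr9:122205007-122220021, minus strand), 1514 bases upstream of Ano10, an anoctamin membrane protein, matches the later lincRNA Gm26797. It had 9.55, 17.1, 12.5 and 12.6 normalised reads in Sham and 50.4, 27.999, 61.8 and 23.6 in MI, without overlap. Ano10 had 6821 ± 846 in Sham (SD, n = 4) and 3110.4 ± 167 in MI. The locus rose by 1.51 ± 0.35 and Ano10 fell by 1.13 ± 0.09 (adjusted p = 1.30e-05), and the ratio rose by 2.63 ± 0.36 (adjusted p = 0.000589). At Ppp1r42 the gene had 16.6 ± 4.95 in Sham (SD, n = 4) and 6.24 ± 1.55 in MI, so it was the weaker of the pair. It fell by 1.27 ± 0.34, while the downstream locus rose by 1.22 ± 0.23 and the ratio by 2.49 ± 0.45 (adjusted p = 0.00398).

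The other 5 opposite pairs lost a call with scaling to library totals. Las1l fell by 0.29 ± 0.07 with the deposited scaling but stood at 0.02 with total scaling, E2f6 fell by 0.37 ± 0.09 but stood at -0.06, and Rbpms fell by 0.23 ± 0.07 but stood at 0.08. Their intergenic loci stayed higher under both, and the ratios at Las1l and E2f6 (adjusted p = 0.000413 and 0.000903) were called under every alternative run. The ratio at Rbpms was not called without Sham 1, MI 3 or MI 4 (at most 0.068). Both loci tail-to-tail with Zmiz1, a regulator of transcription, fell by 0.86 ± 0.20 and 1.24 ± 0.40, and Zmiz1 rose by 0.24 ± 0.09, a call lost under 8 of 17 alternatives. The second of these intergenic loci lost its own call under 7 of 16 alternatives and its ratio under 7 of 12, with adjusted p up to 0.115. The ratio of the first was lost in 3 of 13, without Sham 1, without MI 4 and against the neighbour of highest mean (adjusted p up to 0.348).

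**Figure D5:**
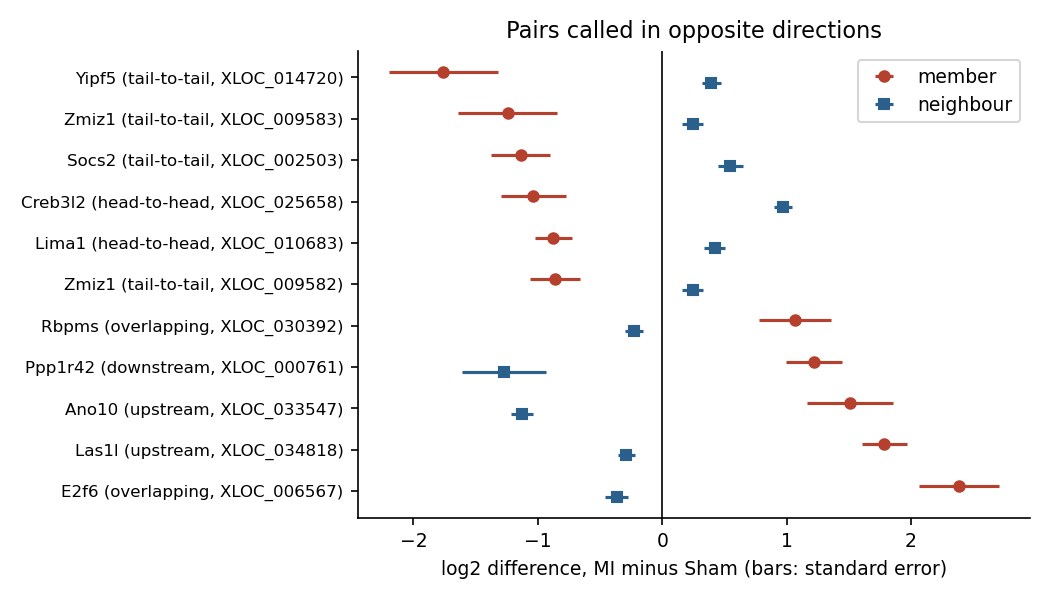
Log2 difference (MI minus Sham) with its standard error for the 11 pairs in which the intergenic locus (red circle) and its nearest annotated gene (blue square) were called in opposite directions. The intergenic locus was lower in 6 pairs and higher in 5; 6 pairs stayed opposite with scaling to library totals.

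Further pairs changed in their ratio without opposite calls. The ratio was called under every alternative in which it could be fitted for the head-to-head loci at Sipa1l2 (-2.78 ± 0.38, adjusted p = 0.000564) and Cyp27b1 with Mettl1 (2.23 ± 0.42, adjusted p = 0.00507). So was the ratio for the tail-to-tail loci at Abcg2 (2.09 ± 0.27) and Sccpdh (-1.15 ± 0.21). It was also called throughout for the overlapping loci at Wdr75 (-2.20 ± 0.42) and Fam220a (1.43 ± 0.26), for the upstream locus at Klhdc4 (1.26 ± 0.27) and for the one at Ankrd1. The ratio at Smtnl2, a smoothelin-like protein, was 0.91 ± 0.25 (adjusted p = 0.0453) and was lost when any of 7 samples was left out, all but Sham 3. Its locus had 69.2, 83.1, 138 and 55.2 normalised reads in Sham and 154, 128, 228 and 159.7 in MI, with Sham 3 inside the MI range.

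Other ratios were called in the full data and lost when single samples were left out. The ratio at Upf1 (2.82 ± 0.64, adjusted p = 0.0171) was lost without MI 1, MI 3 or MI 4, with adjusted p up to 0.0772, and that at Dsg2 (-1.48 ± 0.32) without Sham 4 (0.0543). The ratio at Smad7 (-0.86 ± 0.19) was lost without Sham 1, Sham 4, MI 3 or MI 4, with adjusted p up to 0.0631. Those at Got1, Sgpp1, Gm3716, Eef2k and the neighbour of the Klhl3 locus were each lost under 6 of the 8 omissions, with adjusted p up to 0.133.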

How the data were processed

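Border-zone heart RNA of 4 Sham and 4 MI mice was poly(A) selected and sequenced, per the labels' protocols. DESeq, HTSeq 0.5.4p2, Cufflinks 2.0.2 and TopHat2 2.0.5 are the tools listed for the mm9 build, with no role or setting given, per the submitters' processing notes. The deposited signal per locus is a normalised read count: in every sample 100% of values were whole multiples of a single step, within 1e-06, so the whole reads could be recovered from the values the authors deposited. Locus positions, strands, exons and class codes came from the deposited transcript annotation (mm9). The members and gene lists were chosen with earlier results of these data known.

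Orientation and gap were taken to the nearest annotated locus under 5000 bases away. Annotated loci were named by matching runs of exon and intron lengths to GENCODE M21 (GRCm38), with no coordinates carried over: 19320 of 20506 multi-exon loci (94.2%) were named, decoy lengths gave 25 names (0.13%), and 5593 loci of 1 exon stayed unnamed. Promoters were the RefSeq sequences of GRCm38.p6.

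The main test was limma 3.58.1 (R 4.3.3) with an intensity trend on log2(value + 1) over 19186 loci (mean of 10 or more), 2-sided, Benjamini-Hochberg, threshold 0.05. The ratio test used limma on the log2 difference of locus and neighbour over 1655 pairs with both means at least 10, with a variance trend on the mean of the weaker locus. Alternatives were edgeR 4.0.16 and DESeq2 1.42.0 on the recovered reads, TMM and total scaling, a pseudocount of 5, other filters, a replicate block, the neighbour of highest mean, and leaving out each sample. Thinning to equal depth was added after seeing the data. Both fits were tested on simulated data. No pair of libraries within a group agreed within sampling noise. The named loci are, in each orientation, the 3 largest called rises and falls without overlap, the 2 of highest level per kb, the 2 called loci that differ most from their neighbour in each direction, the highest that was not called, and every tested locus beside a listed gene.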

Additional observations from a re-analysis of the deposited data

Results flagged for a closer look

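In each group of 4 samples, the named loci were checked for a highest or lowest sample whose gap to the nearest other was a larger share of the group's range than Dixon's 95% critical value. This singled out 9 of 114 groups. The critical value sets a rate of about 1 in 20 for independent, normally distributed values. The groups here share the same 8 libraries and some hold few reads, so that rate need not apply. MI 2, which stood at 34.8 on the first principal component of all tested loci while the other MI samples stood at 62.4 to 63.2, was the sample apart in 5 of the 9. In MI 2 the locus at Acaa2 had 118 normalised reads, against 70.9 to 71.6 in the other MI samples, and the Sbk2 locus beside Sbk3 had 568, against 292 to 309. MI 2 was also highest for the loci at Tln2 (579, against 320.4 to 349.9) and Dsp (12.4, against 9.06 to 9.60), and lowest for the locus inside Zfp97 (236, against 319 to 324). In Sham 4 the locus at Egr2 had 1.58, a single read, against 0 in the other Sham samples, and the locus at Dsg2 had 42.6, against 25.01 to 27.3. Sham 2 was low for the locus at Coa7 (29.6, against 39.8 to 41.8), and MI 3 was high for the locus at Rsg1 (149.9, against 68.9 to 78.2).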

How the results depend on the processing

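The main counts were 41 loci higher and 64 lower, with 18 ratios higher and 27 lower. Raising the filter to a mean of 50, which leaves fewer loci to test, gave 24 higher, 41 lower, 9 ratios higher and 16 lower. Scaling to library totals gave 63 higher and 35 lower; it kept all 41 rises and 35 of the 64 falls. Leaving out each sample gave 31 to 41 higher, 52 to 64 lower, 9 to 15 ratios higher and 13 to 26 lower; the cause was not tested beyond there being fewer samples. A gap limit of 1 kb leaves 267 of the 414 loci. The other alternatives (edgeR 42 and 57, DESeq2 41 and 64, TMM 42 and 58, pseudocount of 5 41 and 64, no filter 45 and 61, thinned reads 39 and 60) stayed within 1.5 times the main counts. No called locus reversed under any of these.

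Of 42 named called loci, 37 kept their call under every alternative in which they were tested and 5 lost it with total scaling. Some loci not called gained a call: with the block those at Rsg1 (adjusted p = 0.0499), Tln2 (0.0115) and XLOC_030996 (0.0499), with DESeq2 those at Tln2 (0.0258) and Usp24 (0.0406), and with 1 sample left out those at Rsg1, Tln2, Med26 and XLOC_030996 (0.00745 to 0.0451). Others changed sign as follows. Total scaling gave 0.21 at Meox2, 0.20 at Zfp97, 0.21 at Slc8a1, 0.27 at XLOC_021944 and 0.22 at Zfp619. Dsp stood at -0.092 with edgeR and -0.093 with DESeq2. Leaving out 1 sample moved Meox2 between -0.25 (without MI 4) and 0.11 (MI 2), Dsp between -0.11 (Sham 2) and 0.56 (Sham 3), Zfp97 between -0.21 (Sham 3) and 0.010 (MI 2), Slc8a1 between -0.20 (MI 3) and 0.11 (MI 2), XLOC_021944 between -0.090 (Sham 1) and 0.0097 (Sham 3), and Tbx20 between -0.16 (MI 1) and 0.16 (MI 4).

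Deviations of same-numbered samples correlated at 0.146, 0.272, 0.16 and -0.000918. For every MI sample but MI 4, the highest correlation was with the same-numbered Sham sample. MI 4 correlated best with Sham 1 (0.284), and Sham 1 with MI 4. Whether the replicate numbers pair the samples was not tested. With the replicate number as a block, 41 were higher, 66 lower, 25 ratios higher and 30 lower. Depth limits the 104 loci under a mean of 10, which were not tested, and loci near 3 reads.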
